A study of Rattus norvegicus with 36 samples.

Results

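Heat shock proteins and related chaperones were measured in the hippocampus of female rats by sequencing of total RNA from whole tissue. A list of 10 chaperone genes was looked up by symbol among the 20603 gene rows of the deposited table, and 9 were found: Dnajb1, Hsph1, Hspb1, Hsp90aa1, Hspa8, Hsp90ab1, Hspa5, Hsp90b1 and Hspd1. Hspb1, Hspd1 and the rest all passed the filter on low values, a median of at least 10 over the libraries, which left 15837 genes for testing. Hspa1b had no row under its symbol and was not analysed here. The row of its close relative Hspa1a is given beside the 9 genes and is not counted among them.

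The 36 libraries came from 6 groups of 6 rats each. They comprised regular cyclers at 6 months (Reg6m) and at 9 months (Reg9m), irregular cyclers at 9 months (Irreg9m) and acyclic animals at 9 months (Acyc9m) and 16 months (Acyc16m). The remaining group, RegOVX10m, lost its ovaries at 9 months of age and was sampled at 10 months. The columns of the table carry the tissue and a running number only, so no library could be tied to a group, and the 36 libraries were treated as 1 ungrouped set. Nothing below compares ages, cycle states or surgery, and the differences among the 6 groups lie within the spread described.

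The libraries themselves were much alike. Column totals lay between 34456000 and 35985900 normalised counts, and Pearson r between libraries on the log2 scale was 0.984 to 0.995. The spacing of low values gave an approximate depth of 33000000 to 40300000 reads, except library 30 at 17900000. Leaving out library 30 kept all 9 pairs of chaperones called in the tests that follow. Library 17 stood apart: its genes lay 0.31 log2 units (SD) from their medians, where the next library had 0.28, and results that turn on it are given without it as well. Choroid plexus genes were near 0 in most libraries, with a median sum of 92.8 normalised counts and 1930 in library 8.

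Chaperones bind unfolded or partly folded proteins and help them reach or keep their shape. In the cytosol, heat and other protein damage release the transcription factor Hsf1, which binds heat shock elements and raises Dnajb1, Hsph1, Hspb1, Hsp90aa1 and the inducible Hsp70 genes. Hspa8 and Hsp90ab1 are the constitutive relatives, made in large amounts in unstressed cells. Hspa5 (BiP) and Hsp90b1 (Grp94) work inside the endoplasmic reticulum, where misfolded proteins induce them through the unfolded protein response. Hspd1 (Hsp60) folds proteins in the mitochondrial matrix. In the brain, neurons carry much of the constitutive Hsp70 and Hsp90, whereas small heat shock proteins such as Hspb1 are prominent in glia and vessels.

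Promoters are shown first for Hspa5 and Hsp90b1, the pair with the highest correlation. The others shown are Hsph1, Dnajb1 and Hspd1, genes of other called pairs whose windows hold a heat shock element. They were picked for those textbook elements. The window of Hsp90ab1, which was called with both Hsph1 and Dnajb1, holds neither element and is not printed. Sequences are from RefSeq on the GRCr8 build, where 8 of the 9 genes were matched (Hsp90aa1 was not). Each window of Hspa5, Hsp90b1, Hsph1 and Dnajb1 holds the 250 bases before the annotated start, written 5′ to 3′ on the gene's strand. Capitals mark the fixed letters of an endoplasmic reticulum stress element in Hspa5 and Hsp90b1 and of a heat shock element in the others. For Hspd1 only a stretch of 26 bases holding its element is given.
Hspa5, chr3:38452766-38453015, plus strand: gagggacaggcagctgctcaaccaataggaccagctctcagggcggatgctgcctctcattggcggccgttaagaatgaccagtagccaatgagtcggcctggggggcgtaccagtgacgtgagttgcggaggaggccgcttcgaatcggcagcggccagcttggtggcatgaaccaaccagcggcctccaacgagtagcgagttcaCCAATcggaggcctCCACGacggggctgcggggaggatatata
Hsp90b1, chr7:23012294-23012543, minus strand: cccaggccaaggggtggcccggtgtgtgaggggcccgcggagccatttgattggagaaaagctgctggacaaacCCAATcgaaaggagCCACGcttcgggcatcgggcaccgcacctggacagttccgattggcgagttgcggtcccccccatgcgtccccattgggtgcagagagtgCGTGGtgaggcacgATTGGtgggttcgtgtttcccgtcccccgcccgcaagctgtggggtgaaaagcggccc
Hsph1, chr12:10427118-10427367, plus strand: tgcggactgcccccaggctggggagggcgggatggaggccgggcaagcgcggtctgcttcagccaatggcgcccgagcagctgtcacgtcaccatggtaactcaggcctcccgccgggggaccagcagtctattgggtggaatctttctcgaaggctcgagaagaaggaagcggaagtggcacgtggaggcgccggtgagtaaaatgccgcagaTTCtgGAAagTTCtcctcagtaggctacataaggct
Dnajb1, chr19:41431142-41431391, minus strand: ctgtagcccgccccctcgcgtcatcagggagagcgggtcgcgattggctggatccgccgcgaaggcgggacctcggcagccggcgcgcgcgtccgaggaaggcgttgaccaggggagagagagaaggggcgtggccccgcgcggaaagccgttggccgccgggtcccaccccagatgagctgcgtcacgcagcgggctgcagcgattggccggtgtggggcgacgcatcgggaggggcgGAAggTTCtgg
Hspd1, chr9:64084258-64084283, minus strand: ggccTTCcgGAAggTTCtaGAAccga

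The endoplasmic reticulum stress element, searched on both strands as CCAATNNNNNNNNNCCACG, occurred in 22 of 33469 rat promoter windows reaching from 250 bases before to 50 bases after the start, a share of 0.0657%. Hspa5 held 1 copy, from 43 to 25 bases before its start, and Hsp90b1 held 2, at 176 to 158 and at 72 to 54 bases before its start. No other matched chaperone of the 9 had a copy in its window. A heat shock element of 3 units, GAANNTTCNNGAA or TTCNNGAANNTTC, was found in 0.798% of all windows. Hsph1 had 1 such site, from 36 to 24 bases before its start, Hspa8 had 2 separate sites, and Hspd1 had 2 that overlap each other in the stretch printed above. The Hspd1 element lies inside the annotated Hspd1 gene and also in the promoter window of the neighbouring Hspe1, which encodes the partner of Hsp60 and runs the other way. The shorter element of 2 units, GAANNTTC or TTCNNGAA, is contained in the longer one and was present in 15.9% of windows. Dnajb1 and Hspb1 held the shorter form without the longer one, and the Hsp90ab1 window held neither. The 250 bases taken for Hsp90ab1, chr9:22930173-22930422, lie mostly inside its annotated gene, which starts at 22930249. Much of the sequence before that start was therefore not searched. A match to letters is a description of the sequence and shows no binding.

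The levels of each chaperone are normalised counts. No source used here says that they were divided by gene length, so they are compared between libraries and not between genes. Spread is given as the interquartile range of log2(normalised count + 1) over the 36 libraries. Across the 15837 genes tested the median of that range was 0.15 log2 units. For the 9 chaperones it was between 2.49 and 15.1 times what counting error alone would give, judged from the approximate reads behind the median. Fewer cells of a type and less RNA per cell cannot be told apart in whole tissue, for any of these values.

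Among the inducible cytosolic genes, Hspb1, the small heat shock protein Hsp25/27, varied most. Its lowest, median and highest values were 110, 176 and 259 normalised counts, a 2.35-fold range, and its interquartile range of 0.41 log2 units exceeded that of 89.7% of genes. The low end was populated, since libraries 35 and 22 had 110 and 111 normalised counts, and so was the high end, where libraries 10 and 9 had 259 and 257. Hspb1 rested on about 177 reads at its median, the fewest of the 9 genes, and counting error would give an interquartile range of 0.15.

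Dnajb1, the Hsp40 cochaperone that feeds clients to Hsp70, had 1507, 1730 and 2141 normalised counts as lowest, median and highest values, a 1.42-fold range. Its highest values stood in libraries 6 and 3, at 2141 and 2080. The same 2 libraries had the highest Hspa1a, the stress-inducible Hsp70, at 925 and 934 normalised counts, where the median was 727 and the lowest was 562. Hsph1 (Hsp105), which exchanges nucleotide on Hsp70, had 11230, 12049 and 13497 normalised counts. Its range was 1.20-fold, with library 17 at the bottom and library 24 at the top. Hsp90aa1, the inducible cytosolic Hsp90, had 50497, 56954 and 64883 normalised counts, a 1.28-fold range. Libraries 11 and 21 shared its low end at 50497 and 50502.

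Of the constitutive pair, Hspa8 (Hsc70) had 1660, 2081 and 2569 normalised counts, a 1.55-fold range and an interquartile range wider than that of 56.7% of genes. Hsp90ab1 had 51806, 57086 and 60992, a 1.18-fold range, and only 8.33% of genes had a narrower interquartile range. Library 16 was lowest and library 17 second lowest for both genes. These rows have many near-identical copies in the genome: RefSeq names 33 pseudogenes for Hspa8, 23 for Hsp90ab1, 20 for Hspd1, 16 for Hsp90aa1 and 2 for Hsp90b1, and none for the other members. Reads may have been divided between a gene and its copies, so the levels of these 5 genes are uncertain. A separate row, Hsc70-ps2, had a median of 862 normalised counts and correlated with Hspa8 at r = 0.63 (limma adjusted p = 0.0362). That relation missed the threshold without library 17 (r = 0.61, adjusted p = 0.111). Hsc70-ps2 was also called with Hsp90ab1 (r = 0.74, adjusted p = 2.12e-05).

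In the endoplasmic reticulum, Hspa5 had 9674, 11060 and 13174 normalised counts, a 1.36-fold range, and its interquartile range of 0.19 exceeded that of 65.1% of genes. Hsp90b1 had 12568, 14009 and 15137, a 1.20-fold range, with 30.8% of genes narrower. Libraries 24 and 2 were the highest for Hspa5, and libraries 2 and 14 for Hsp90b1. Hspd1, the mitochondrial member, had 5601, 6139 and 6682 normalised counts, a 1.19-fold range. Only 3.45% of genes had a smaller interquartile range than Hspd1. By interquartile range Hsph1, which is inducible, varied less (0.09) than Hspa8, which is constitutive (0.16), but the level of the Hspa8 row is uncertain. The other constitutive gene, Hsp90ab1, had 0.07. That was narrower than the inducible Hsph1, Hsp90aa1 (0.12), Dnajb1 (0.13) and Hspb1 (0.41), so the overlap of the 2 classes in spread rests on the Hspa8 row.

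**Figure D1:**
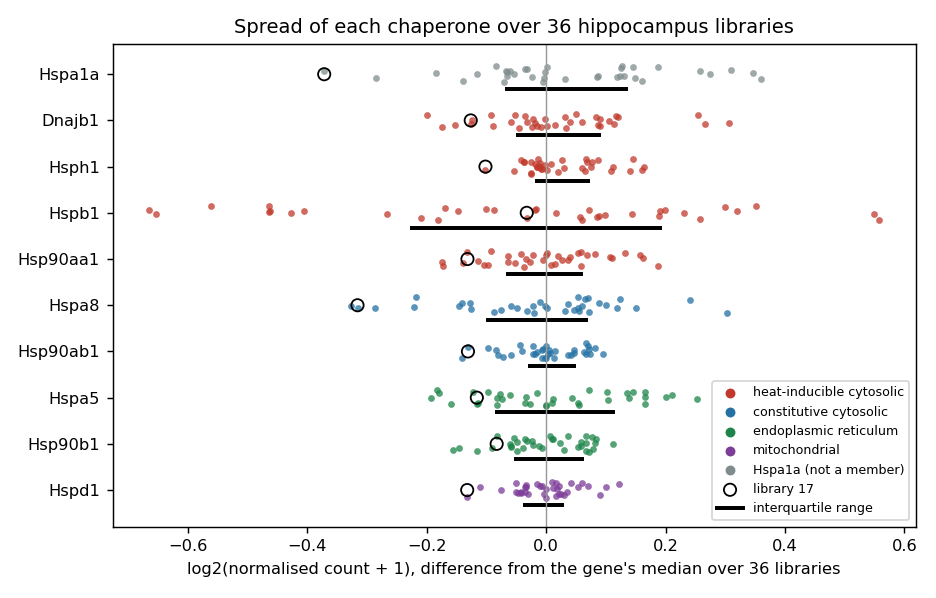
Each point is 1 of 36 libraries, placed by the difference of its log2(normalised count + 1) from the gene's median (x axis, log2 units), with genes down the page and black bars for the interquartile range. Hspb1 spans 1.22 log2 units, and Hsp90ab1, Hspd1, Hsph1 and Hsp90b1 each span under 0.3; the open circle is library 17, the lowest for Hsph1, Hspd1 and Hspa1a.

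Whether the chaperones moved together was asked with limma, using the log2 level of each chaperone as a predictor of every other gene and adjusting p-values by Benjamini-Hochberg over all 15836 genes tested. A pair was called when the fits in both directions had an adjusted p below 0.05, and the larger of both values is printed. Of the 36 pairs among the 9 chaperones, 9 were called, all with a positive correlation. The median Pearson r over the 36 pairs was 0.33, against -0.01 for the 9 chaperones with all other genes. The permutations treat the libraries as exchangeable, which the 6 unidentified groups may not be. The p-values are for association over the 36 pooled libraries, and the part of group differences in the correlations could not be tested.

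Hspa5 and Hsp90b1 formed the closest pair (r = 0.87, Spearman rho = 0.87, adjusted p = 1.19e-06). Each was the gene most correlated with the other among all 15836 tested. The permutation p was 1e-05 for both coefficients, the smallest that 100000 resamples can give. Without the 2 libraries farthest from the Hspa5 median, r was 0.85. The relation ran through the whole range of libraries, from library 7, where Hspa5 and Hsp90b1 were second lowest and lowest, to library 2, where they were second highest and highest. With the first principal component of all genes in the model the pair was still called (adjusted p = 0.000418), although 28 genes in all were called with Hspa5 and 4 with Hsp90b1, against 693 and 1417 without it. Without library 17, 446 genes were called with Hspa5. With Hspa5 as the predictor, 3 of the other 8 chaperones were called positive, where 2.44% of all genes were. With Hsp90b1, the count was 3 of 8, where 5.58% of all genes were.

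Hsph1 was called with chaperones of both the cytosol and the endoplasmic reticulum. It correlated with Hsp90ab1 (r = 0.74, rho = 0.78, adjusted p = 0.00229), with Hspa5 (r = 0.73, rho = 0.71, adjusted p = 0.00113) and with Hsp90b1 (r = 0.71, rho = 0.72, adjusted p = 0.00172). All 3 had a permutation p of 1e-05, and r without the 2 farthest libraries was 0.70, 0.67 and 0.68 in that order. With Hsph1 as the predictor 5 of 8 chaperones passed, where 2.18% of all genes were positive and past the threshold. Hsph1 values were high in library 24, which was also the highest for Hspa5 and Hsp90ab1, and lowest in library 17. Without library 17 the 3 pairs were still called, but 46 genes in all were called with Hsph1, against 608 with it.

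Dnajb1 went with Hsp90ab1 (r = 0.76, rho = 0.73, permutation p = 1e-05, adjusted p = 0.000451; r = 0.74 without the 2 farthest libraries). It also went with Hspa1a (r = 0.80, rho = 0.80, adjusted p = 6.58e-06), the row outside the 9. The third relation of Dnajb1, with Hsph1, was the weakest of the 9 called pairs (r = 0.52, rho = 0.46, permutation p = 0.00115, adjusted p = 0.0365). It missed the threshold without library 17 (r = 0.48, adjusted p = 0.147). The call was also lost with ranks in place of log2 values and without the 2 farthest libraries. Dnajb1 was not called with Hspa5 (r = 0.37, adjusted p = 0.148) or Hsp90b1 (r = 0.12, adjusted p = 0.694). With Dnajb1 as the predictor 2 of 8 chaperones were called, where 9.76% of all genes were positive and past the threshold.

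The 2 cytosolic Hsp90 genes differed in the chaperones they were called with. Hsp90aa1 and Hsp90ab1 were not called with each other (r = 0.34, rho = 0.32, permutation p = 0.0397, adjusted p = 0.225). Hsp90aa1 was called with Hspd1 (r = 0.72, rho = 0.69, permutation p = 1e-05, adjusted p = 0.000386), whereas the value for Hsp90ab1 with Hspd1 was r = 0.17 (adjusted p = 0.613). The difference between these correlations was not tested. The one-way count was 2 of 8 chaperones with Hsp90aa1, where 5.58% of all genes were positive and past the threshold, and 3 of 8 with Hsp90ab1, where 12.3% were. The Hsp90ab1 count is to be read against that larger background.

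Hspd1 was called with Hspa5 (r = 0.61, rho = 0.58, permutation p = 0.00013, adjusted p = 0.0154) and with Hsp90b1 (r = 0.61, rho = 0.60, permutation p = 8e-05, adjusted p = 0.00878). Both calls were lost when the first principal component, which held 8.28% of the variance, was added to the model (partial r = 0.45 and 0.44, adjusted p = 0.340 and 0.700). That component correlated with Hspa5 at r = -0.56, with Hsp90b1 at r = -0.63 and with Hspd1 at r = -0.51, and library 17 had its highest score. One-way, 4 of 8 chaperones passed with Hspd1 as the predictor, where 6.76% of all genes were positive and past the threshold.

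The rows of Hspa8 and Hspb1 were in none of the called pairs. The level of the Hspa8 row is uncertain, since reads may have been divided between the gene and its copies. Hspa8 had its highest correlation with Hsp90ab1 (r = 0.60, rho = 0.48, permutation p = 0.00017, adjusted p = 0.0722), which missed the threshold, and 0.246% of all genes were positive and past it with Hspa8. The 50 genes called with Hspa8 were 0 without library 17. Hspb1 had r between -0.22 and 0.11 in its 8 pairs. With Hspb1 as the predictor 0 of 15836 genes were called positive and 1 was called negative, Tbck (r = -0.71, adjusted p = 0.0227). At an unadjusted limma p below 0.05, 1109 genes were positive and 1315 negative with Hspb1, and none of the other chaperones was among them. The heat-inducible class, as drawn here, did not move as a unit: 1 of its 6 pairs was called, with a median r of 0.10. Pairs within a class were called in 2 of 8 cases and pairs across classes in 7 of 28, where 4.98% of the 142524 one-way relations of the 9 chaperones to all other genes were positive and past the threshold. Of the 6 inducible pairs 3 involve Hspb1. Without Hspb1, 2 of 5 pairs within a class (median r = 0.52) and 7 of 23 across classes (median r = 0.36) were called, a difference that was not tested.

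In the negative direction 0 of the 8 others were called with any of the 9 chaperones, and 0 were negative at an unadjusted limma p below 0.05. The share of all genes that were negative and past the threshold was 8.39% with Hsp90ab1, 5.5% with Dnajb1, 5.04% with Hspd1, 3.57% with Hsp90aa1, 3.37% with Hsp90b1, 1.93% with Hspa5 and 1.66% with Hsph1. It was 0.0695% with Hspa8 and 0.00631% with Hspb1. With Hspa1a as the predictor 4 of the 9 chaperones passed as positive and 0 as negative, where 10.7% of all genes were positive and 7.34% negative.

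**Figure D2:**
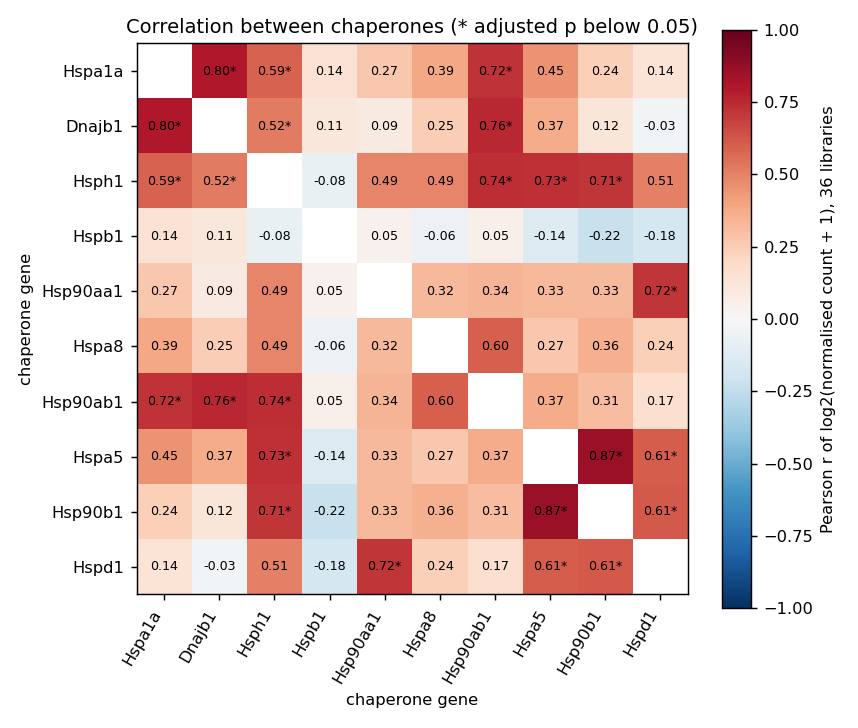
Pearson r of log2(normalised count + 1) over 36 libraries for each pair of chaperone genes (rows and columns; colour scale from -1 to 1; asterisk, adjusted p below 0.05 in both directions of the limma fit). Hspa5 with Hsp90b1 at 0.87 is the highest pair among the 9 genes, and the Hspb1 row lies between -0.22 and 0.14.

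**Figure D3:**
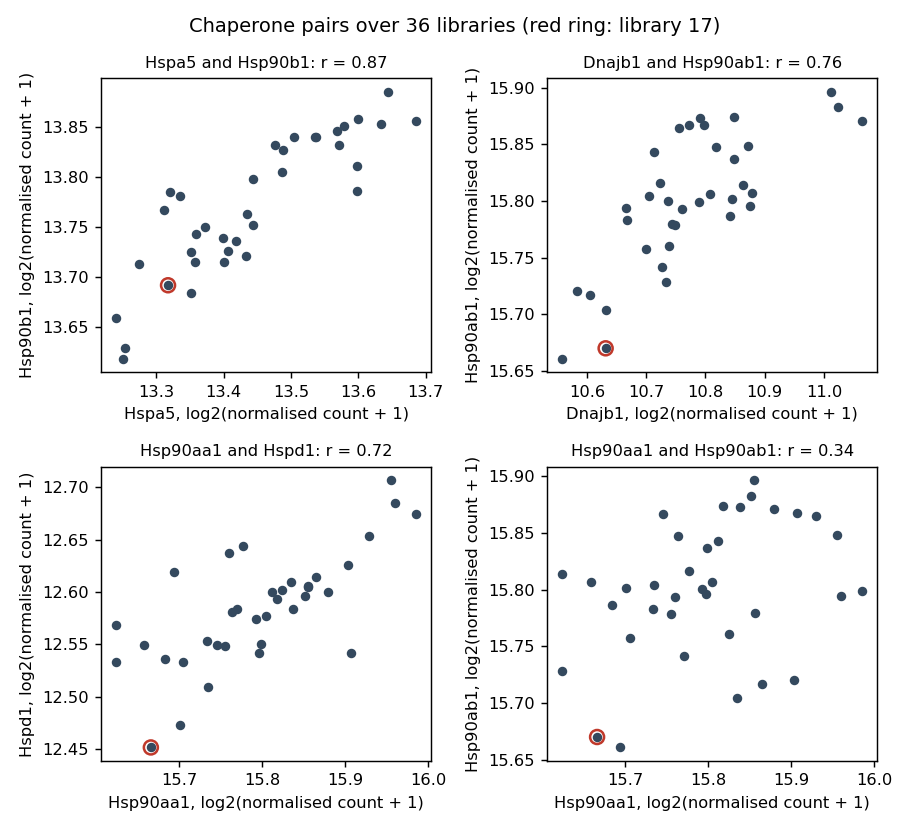
Each point is 1 of 36 libraries and the axes are log2(normalised count + 1) of the 2 genes named on each panel; the red ring is library 17. Hspa5 with Hsp90b1 (r = 0.87), Dnajb1 with Hsp90ab1 (r = 0.76) and Hsp90aa1 with Hspd1 (r = 0.72) rise across the panel, and Hsp90aa1 with Hsp90ab1 (r = 0.34) scatters.

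Other genes of the chaperone network were taken from lists of 18 Hsf1 targets and cochaperones, 17 endoplasmic reticulum stress genes, 12 chaperonin and prefoldin genes and 8 mitochondrial chaperones. With Hspa5, 11 of the 17 endoplasmic reticulum stress genes were called positive and none negative, with a median r of 0.60 against -0.01 over all genes. The 11 included the disulfide isomerases Pdia4 (r = 0.82, adjusted p = 6.87e-06), Pdia6 (r = 0.79, adjusted p = 7.69e-05) and Pdia3 (r = 0.76, adjusted p = 0.00096), and Hyou1, the large Hsp70 relative of the lumen (r = 0.70, adjusted p = 0.0015). The lectin chaperone Calr, the secreted factors Manf and Creld2, and the transcription factor Xbp1 were also among them, with r between 0.58 and 0.64. Ddit3 (CHOP), the proapoptotic factor of the same response, had r = 0.05, Atf4 had r = -0.08 and Herpud1 had r = -0.03, and none of these 3 was called.

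The same 17 genes were called positive in 8 cases with Hsp90b1, 9 with Hsph1, 9 with Dnajb1, 10 with Hsp90ab1, 3 with Hsp90aa1, 4 with Hspd1 and 0 with Hspa8 and Hspb1. The shares of all genes called positive were 5.58% with Hsp90b1, 2.18% with Hsph1, 9.76% with Dnajb1, 12.3% with Hsp90ab1, 5.58% with Hsp90aa1, 6.76% with Hspd1, 0.246% with Hspa8 and 2.44% with Hspa5. The genes called differed between the chaperones. Canx, the membrane lectin chaperone, went with Hspd1 (r = 0.87), Hsp90b1 (r = 0.71), Hsp90aa1 (r = 0.68) and Hspa5 (r = 0.60) and had r = -0.23 with Dnajb1 and 0.02 with Hsp90ab1. Herpud1 went with Dnajb1 (r = 0.64, adjusted p = 0.00149) and Hsp90ab1 (r = 0.57, adjusted p = 0.00304), and Atf4 with the same 2 genes (r = 0.45 and 0.47, adjusted p = 0.0384 and 0.0239).

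Of the 18 Hsf1 targets and cochaperones, 6 were called positive with each of Dnajb1, Hsph1, Hsp90ab1 and Hspd1, and none with Hspa8 or Hspb1. There were 5 with Hsp90b1, 4 with Hsp90aa1 and 3 with Hspa5. Of all genes, 9.76% were called positive with Dnajb1, 2.18% with Hsph1, 12.3% with Hsp90ab1 and 6.76% with Hspd1. The share was 5.58% with each of Hsp90b1 and Hsp90aa1, 2.44% with Hspa5 and 0.246% with Hspa8. Without library 17 the counts were 7 with Dnajb1, 4 with Hsph1, 5 with Hsp90ab1 and 6 with Hspd1. Dnajb1 went with Fkbp4, the immunophilin that joins Hsp90 to steroid receptors (r = 0.85, adjusted p = 9.64e-07), and with Cdc37, the Hsp90 cochaperone of kinases (r = 0.64, adjusted p = 0.00161). Hsph1 went with Stip1, the adaptor between Hsp70 and Hsp90 (r = 0.84, adjusted p = 1.89e-05), and with Dnaja1, an Hsp40 (r = 0.77, adjusted p = 0.000175). Hspa5 went with Chordc1, an Hsp90 cochaperone of the cytosol (r = 0.86, adjusted p = 1.94e-07). For Hspd1 the 6 were Dnaja1, Dnajb4, Dnajb6, Chordc1, Ptges3 and Hspe1, and 1 gene, Hspb8, was negative (r = -0.45, adjusted p = 0.0388), a call lost without library 17. The median r of the list was 0.26 with Dnajb1, 0.31 with Hsph1, 0.23 with Hsp90ab1 and 0.28 with Hspd1, against -0.02, -0.0031, -0.03 and -0.01 over all genes in that order. The transcript of Hsf1 itself had r = 0.22 with Dnajb1 and 0.17 with Hspa5 and was called with neither.

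The chaperonin list, the Cct ring that folds actin and tubulin and the prefoldin that delivers them, was called positive in 8 of 12 genes with Hspd1 and in 8 of 12 with Hsp90aa1, with a median r of 0.64 and 0.55 against -0.01 over all genes for both. The highest for Hspd1 were Tcp1 (r = 0.84, adjusted p = 2.19e-06), Cct8 (r = 0.83) and Cct6a (r = 0.83). With Hsp90aa1 the highest was Pfdn1 (r = 0.76, adjusted p = 3.21e-05). Without library 17 Hspd1 had 6 of 12, with a median r of 0.55, and Hsp90aa1 still had 8. Hsph1 had 5 of 12 and 0 without library 17, Hspa5 had 5 and 3, and Hsp90b1 had 5 and 4. Of the 8 mitochondrial chaperones, 2 were called with Hspd1: Hspa9, the matrix Hsp70 (r = 0.55, adjusted p = 0.0112), and Hspe1, the partner that shares its promoter (r = 0.46, rho = 0.47, permutation p = 0.00525, adjusted p = 0.0440). The median r of that list with Hspd1 was 0.17. The cytosolic Hsp90aa1 and Hsp90ab1 also had 2 of 8 each. The shares of all genes called positive were 6.76% with Hspd1, 5.58% with Hsp90aa1 and 12.3% with Hsp90ab1. They were 2.18% with Hsph1, 2.44% with Hspa5 and 5.58% with Hsp90b1. Hspe1 was higher in its relation to Hsp90aa1 (r = 0.64, adjusted p = 0.00138) than to Hspd1, a difference that was not tested.

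**Figure D4:**
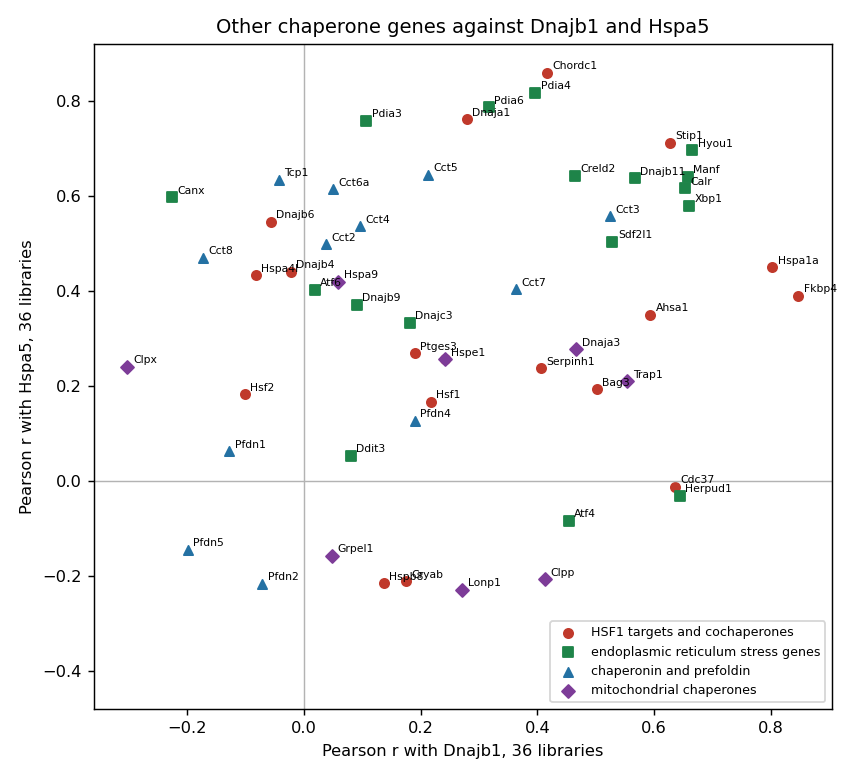
Each point is a gene of 1 of 4 chaperone lists, placed by its Pearson r with Dnajb1 (x axis) and with Hspa5 (y axis) over 36 libraries. Hspa1a and Fkbp4 sit far right at 0.80 and 0.85 with Dnajb1, Chordc1 and Pdia4 sit at the top at 0.86 and 0.82 with Hspa5, and Hyou1, Manf, Calr and Xbp1 are high on both axes.

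Beyond these lists, the 3 genes outside the 9 with the highest r were named for each chaperone, among those past the threshold. For Dnajb1 they were Usp10, a deubiquitinase (r = 0.85), Fkbp4 (r = 0.85) and Hspa1a (r = 0.80). For Hsp90ab1 they were Gapdh and Pkm, enzymes of glycolysis, and Acot7, an acyl-CoA thioesterase (r = 0.90, 0.90 and 0.89). For Hsp90aa1 they were Tceal9, Scoc and Ywhaq, a 14-3-3 protein (r = 0.90, 0.89 and 0.89). Set beside the other Hsp90, Gapdh and Pkm had r = 0.29 and 0.30 with Hsp90aa1, and Tceal9, Scoc and Ywhaq had r = 0.19, 0.23 and 0.27 with Hsp90ab1, none of which was called. Acot7 was called with both, at r = 0.89 with Hsp90ab1 and r = 0.47 with Hsp90aa1.

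For Hspd1 the leading genes were Canx, Cops2, a subunit of the COP9 signalosome, and Morf4l2, a chromatin protein (each r = 0.87). For Hsp90b1 they were Hspa4, an Hsp110 relative (r = 0.79), Pdia3 (r = 0.78) and the import receptor Ipo7 (r = 0.77). Hspa5 had Chordc1, Pdia4 and Klhl7, an adaptor of a ubiquitin ligase (r = 0.79), after Hsp90b1. Hsph1 had Stip1, Dnaja1 and LOC680121 (r = 0.82), a row that the gene table used here does not annotate. LOC680121 had a median of 46609 normalised counts and correlated with Hsp90ab1 at r = 0.70 and with Hspa8 at r = 0.43, which was not called (adjusted p = 0.195). Besides Hsph1 and Hsp90ab1, LOC680121 was called with Hsp90aa1 (r = 0.76), Hspa5 (r = 0.67), Hspd1 (r = 0.58), Dnajb1 (r = 0.54) and Hsp90b1 (r = 0.54). It was not called with Hspb1 (r = 0.09). Hspa8 had Atp6v0a1, a subunit of the vacuolar proton pump, Fxyd3 and Ptprn (r = 0.70, 0.69 and 0.69, each adjusted p = 0.0124), and none of these passed without library 17 (adjusted p = 0.108 to 0.111), where r was 0.65, 0.69 and 0.64 in the same order. Of the 24 positive relations named by this rule, 21 passed without library 17.

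Markers of brain cell types moved with several chaperones. Summed levels of 11 marker lists were correlated with the 9 chaperones, 99 relations in all, with permutation p-values adjusted over the 99. There were 22 past the threshold, 3 positive and 19 negative. The sum of 6 neuronal genes, which lay between 230694 and 280488 normalised counts, went with Hsp90ab1 (r = 0.71, rho = 0.68, adjusted permutation p = 0.00033), Hsph1 (r = 0.66, rho = 0.66) and Hspa8 (r = 0.55, rho = 0.51). Without the 2 libraries farthest from each chaperone's median, r was 0.61, 0.60 and 0.39 in that order. Taken singly, 4, 3 and 0 of the 6 neuronal genes were called positive with them, where 12.3%, 2.18% and 0.246% of all genes were. The sum of 5 astrocyte genes, between 67173 and 94728, was negative with Hsp90ab1 (r = -0.72, rho = -0.67) and Hsph1 (r = -0.64, rho = -0.62). It was also negative and past the threshold with Hsp90aa1 (r = -0.50), Hspa8 (r = -0.49), Hspd1 (r = -0.46) and Dnajb1 (r = -0.43). Leaving out the 2 libraries farthest from each chaperone's median gave r = -0.43, -0.29, -0.30 and -0.46 in that order. For Hsp90ab1 and Hsph1 it gave -0.61 and -0.58. Of the 5 astrocyte genes taken singly, 3 were called negative with each of Hsp90ab1 and Hsph1, where 8.39% and 1.66% of all genes were. For Hsp90aa1, Hspa8, Hspd1 and Dnajb1 the counts were 1, 0, 1 and 1, against 3.57%, 0.0695%, 5.04% and 5.5% of all genes. Hspb1 passed with none of the 11 lists over the 36 libraries.

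Oligodendrocyte markers were negative with the endoplasmic reticulum pair, at r = -0.58 for Hsp90b1 and r = -0.53 for Hspa5 (adjusted permutation p = 0.00198 and 0.00545). The sum of the 5 genes, led by Mbp, had a median of 166612 normalised counts and reached 325865 in library 17, where the next highest library had 208454. Library 17 also had the lowest neuronal sum and the highest sums of astrocyte, endothelial, blood and mitochondrially encoded genes. Without it, r was still past the threshold for Hspa5 and Hsp90b1 with oligodendrocyte markers, and it no longer passed for Hsph1 (r = -0.30) or Hspd1 (r = -0.35). Hspb1 passed as positive in that setting (r = 0.47, adjusted permutation p = 0.0370, against r = 0.35 over 36 libraries). Endothelial markers, for which 4 of 5 genes were found, were negative with Hsp90ab1 (r = -0.59), Dnajb1 (r = -0.51) and Hsph1 (r = -0.42). Mural and meningeal markers were negative with Hsp90ab1 (r = -0.48) and choroid plexus genes with Hspa5 (r = -0.46, rho = -0.53). The median sum of the choroid plexus genes was 92.8 normalised counts, and 3 of the 5 found passed the filter on low values.

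Mitochondrially encoded genes, whose share can move with RNA or tissue quality, were negative with Hsp90ab1 (r = -0.57, adjusted permutation p = 0.00339), Hsph1 (r = -0.50, 0.0151) and Dnajb1 (r = -0.48, 0.0187), the genes of 3 called pairs. Without library 17 they passed with Hsp90ab1 (r = -0.47) and Dnajb1 (r = -0.45) and not with Hsph1 (r = -0.40, adjusted permutation p = 0.0915). Immediate early genes, which mark recent neuronal activity, were negative with Hspd1 (r = -0.46, adjusted permutation p = 0.0258) and missed the threshold without library 17 (r = -0.44, 0.0524). The part of cell composition, RNA quality or activity in the correlations between chaperones was not tested.

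**Figure D5:**
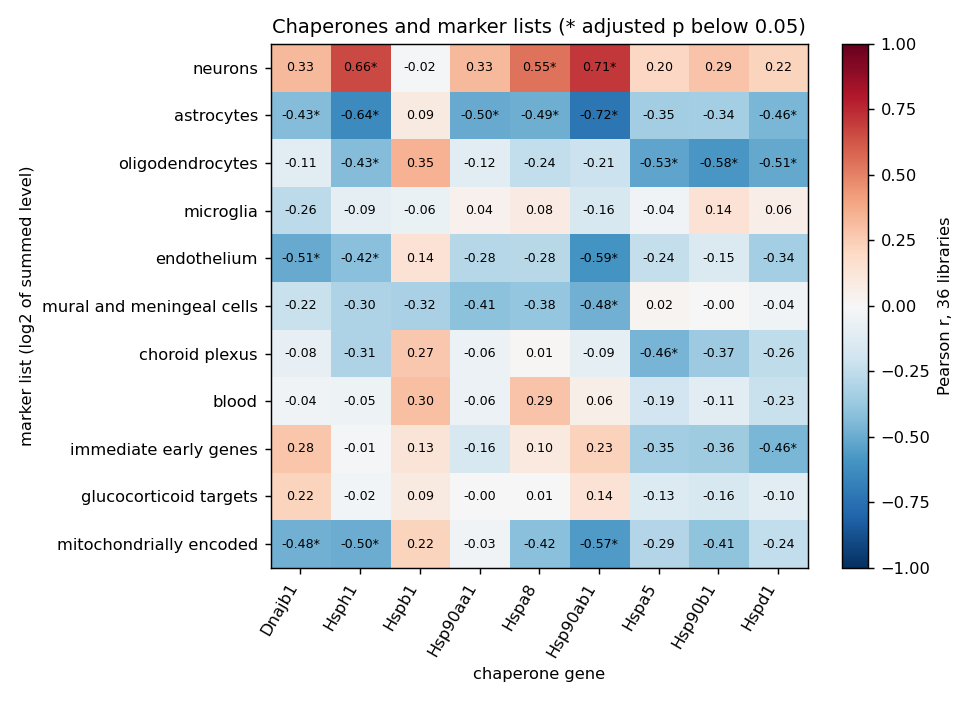
Pearson r over 36 libraries between each chaperone (columns) and the log2 summed level of each marker list (rows), on a colour scale from -1 to 1; an asterisk marks a permutation p below 0.05 after adjustment over 99 relations. Neuronal markers are positive with Hsph1 and Hsp90ab1 at 0.66 and 0.71, and astrocyte markers are negative with the same 2 genes at -0.64 and -0.72. Astrocyte markers also carry an asterisk with Dnajb1, Hsp90aa1, Hspa8 and Hspd1, all negative.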

How the data were processed

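Total RNA of frozen hippocampus from 36 female rats was sequenced. The deposited table holds 1 value per gene and library, which its name calls normalised counts; the signal is not whole and column totals are close, and how the authors scaled it is not stated. Per the submitters' processing notes, kallisto 0.43 and DESeq2 were used. Their roles and the transcriptome build are not given here. Only 67.0 to 89.5% of low values (below 30) were whole within 0.05 of a step, so counts were not recovered and depths are approximate. Columns were mapped to the tissue only.

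Values were tested as log2(value + 1) with limma 3.58.1 (trend) in R 4.3.3, 1 fit per chaperone, on genes with a median of at least 10. Pearson, Spearman and two-sided permutation tests (100000 resamples) used Python 3.11.15 with numpy 2.4.6. The fit was tested on simulated data. Of the 20603 table symbols, 15699 matched RefSeq. Named genes are the chaperones, the listed genes counted in a result, and the 3 highest in r for each chaperone past the threshold. The chaperones and lists were chosen with earlier results of these data known. Alternatives were other pseudocounts, no filter, equal totals, ranks, a principal component and libraries left out. Libraries 17 and 30 were left out after seeing the data.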

Additional observations from a re-analysis of the deposited data

How the results depend on the processing

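The count of 9 called pairs was 7 to 11 under the alternatives: 7 without the 2 libraries farthest from each chaperone's median, 8 with ranks and 8 without library 17, 11 with libraries rescaled to the same total, and 9 under the others. No correlation between chaperones that had been called changed sign. Dnajb1 with Hsph1 was lost without library 17 (adjusted p = 0.147), with ranks (0.150) and without the 2 farthest libraries (0.0705). Hspa5 with Hspd1 was lost with the principal component as a covariate (0.340) and without the 2 farthest libraries (0.0596), and Hsp90b1 with Hspd1 with the component (0.700). Hsph1 with Hsp90aa1 passed with the component (0.0490) and after rescaling (0.0418), Hsph1 with Hspd1 after rescaling (0.0233), and Hspa8 with Hsp90ab1 with the component (0.0481). The causes were not tested.

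Of the 99 relations to marker lists, 22 passed, and 9 passed without the 2 farthest libraries, 16 without library 17, 16 with the component and 17 with ranks. Genes called per chaperone moved by more than 1.5 times in several cases. Hspa5 had 693 genes, 28 with the component, 446 without library 17, 1192 after rescaling and 401 with ranks. Hsp90b1 had 1417, 4 with the component, 2294 after rescaling and 777 with ranks. Hsph1 had 608, 46 without library 17, 1082 after rescaling and 39 with ranks. Hspa8 had 50, 133 with the component, 83 without library 30, 16 without a filter and 0 with ranks or without library 17. Hspb1 had 1, 3 without library 17, and 0 with the component or ranks. Positive calls made up 60.3% of all calls and 67.0% after rescaling. No paired analysis was possible because the columns carry no label of a group or a shared number.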

Other observations

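The negative side of the lists was led by cold-inducible RNA-binding proteins in the case of Hspa5. Cirbp (r = -0.77, rho = -0.72, adjusted p = 7.69e-05) was its most negative gene and Rbm3 (r = -0.74, rho = -0.72, adjusted p = 0.000127) the third. Both genes are known to be raised by mild cooling. They were looked up with the other chaperones after these values were seen. Cirbp and Rbm3 were also negative and past the threshold with Hsp90b1 (r = -0.59 and -0.60), Dnajb1 (r = -0.53 and -0.67), Hsph1 (r = -0.59 and -0.67), Hsp90ab1 (r = -0.43 and -0.62) and Hspa1a (r = -0.57 and -0.69). They were not called with Hsp90aa1, Hspa8, Hspb1 or Hspd1. Rbm3 had 2233 normalised counts in library 2 and 2355 in library 24, its lowest values, where the median was 3034 and the highest 3644. Libraries 24 and 2 were also the lowest for Cirbp, at 1819 and 1922 against a median of 2239, and the highest for Hspa5, at 13174 and 12798 against a median of 11060. Without library 17 the relation of Cirbp to Hsph1 missed the threshold (adjusted p = 0.0638).

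The most negative genes of Hsp90ab1 were Aqp4, the water channel of astrocytes (r = -0.82), Zeb1 (r = -0.80) and Aldh6a1 (r = -0.78). Those of Hsp90aa1 were Ubp1 (r = -0.76), Plxnb1 (r = -0.75) and Mllt6 (r = -0.75). Rnpepl1 was among the 3 most negative genes of both Hspa5 (r = -0.75) and Hsp90b1 (r = -0.72), and had r = -0.06 with Dnajb1.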
